A study of Mus musculus with 5 samples.

Results

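LINEs and SINEs, the long and short interspersed elements, are the 2 retrotransposon classes described here, taken by name as 2 of the 12 lines that the authors' read count table gives for each library. Primary fibroblasts from mouse embryos, proliferating at passage 4, were used for ChIP-seq (immunoprecipitation of chromatin followed by sequencing) with an antibody to γH2AX, the phosphorylated histone that marks DNA breaks and stalled forks. The ChIP libraries came from Rb+/+ cells, with both copies of the retinoblastoma gene, from RbΔL/+ and RbΔL/ΔL cells, with the ΔL allele on 1 or both copies, and from Rb-/- cells, which lack the gene product. ΔL alters the cleft of the retinoblastoma protein that binds proteins with an LXCXE motif. Each genotype had 1 library, and 1 input library of DNA without antibody, for which the labels name no genotype, served all 4 as reference. Whether a library came from 1 embryo or several is not given in the labels, and no cell type markers can be checked in repeat counts. No difference between genotypes could be tested, and every interval below is a 95% interval for counting error only.

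LINEs are autonomous retrotransposons, which encode the proteins that copy and insert them. SINEs are short, non-coding elements that use the LINE machinery to move. In the mouse, LINEs are enriched in AT-rich, gene-poor DNA that tends to replicate late, whereas SINEs are enriched in GC-rich, gene-dense DNA that tends to replicate early. The ratio of LINE to SINE counts is therefore given beside the level of each class. The table does not say which LINE or SINE families it holds, and no value in it measures base composition or replication time.

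The 5 libraries held from 13731924 counts, in RbΔL/+, to 17896985, in Rb+/+. The line named Unique genome held 88.7% to 89.8% of counts and Satellite 2.71% to 3.95%. The other 10 lines, called the repeat lines here, held 7.26% of counts in RbΔL/ΔL, 7.31% in the input and 7.46% in Rb+/+, against 7.84% in RbΔL/+ and 7.85% in Rb-/-. LINEs were the third largest of these 10 in the input, after tandem repeats and endogenous retroviruses, and SINEs were the fourth. The sources used here do not give whether a read that maps uniquely inside a LINE or SINE copy was counted with that class or with Unique genome, so the shares below are shares of counts and not of the genome.

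LINEs made up a larger share of all counts in the 4 ChIP libraries than in the input, most of all in Rb-/-, although on other scales RbΔL/+ (0.931 and 0.971 times the input) and RbΔL/ΔL (0.9998) did not lie above it. The LINE count was 335363 in the input, 1.952% of all counts (1.945 to 1.959). It was 382167 in Rb+/+, or 2.14% (2.13 to 2.14), and 279099 in RbΔL/+, or 2.03% (2.03 to 2.04). RbΔL/ΔL had 316341 LINE counts, or 1.97% (1.963 to 1.976), and Rb-/- had 392209, or 2.35% (2.34 to 2.36). Rb-/- was thus the highest library and the input the lowest, and no neighbours in this order had overlapping intervals. Put as counts, Rb-/- held 66156 more LINE counts than its total would give at the input's LINE share. The excess was smaller elsewhere, 2828 for RbΔL/ΔL, 11051 for RbΔL/+ and 32817 for Rb+/+. In Rb-/- the 10 repeat lines together exceeded the input share by 90390 counts, and the next largest excess after that of LINEs was 28266 for endogenous retroviruses. In RbΔL/+ the 10 lines together exceeded it by 73007 counts, of which endogenous retroviruses had 38103, against 11051 for LINEs and 5780 for SINEs.

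SINEs, with far fewer counts than LINEs, had another order of libraries as shares of all counts, with RbΔL/+ highest and RbΔL/ΔL lowest. The place of RbΔL/+ did not hold after division by the median line, that is by the median over the 12 lines of a library's ratios to input, where it was the third of the 4 ChIP libraries. The SINE count was 68014 in the input, or 0.396% of all counts (0.393 to 0.399), and 69454 in Rb+/+, or 0.388% (0.385 to 0.391). RbΔL/+ had 60142 SINE counts, or 0.438% (0.434 to 0.441). In RbΔL/ΔL the count was 59073, or 0.368% (0.365 to 0.371), and in Rb-/- it was 66782, or 0.3998% (0.397 to 0.403). The interval of Rb-/- overlapped that of the input, and the other neighbours in the order did not overlap. RbΔL/+, with the highest SINE share, was also the library with the fewest counts, 13731924, and the part of depth in this was not tested. Against the input share, SINE counts were in excess by 5780 in RbΔL/+ and 656 in Rb-/-, with values of -1397 in Rb+/+ and -4510 in RbΔL/ΔL.

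**Figure D1:**
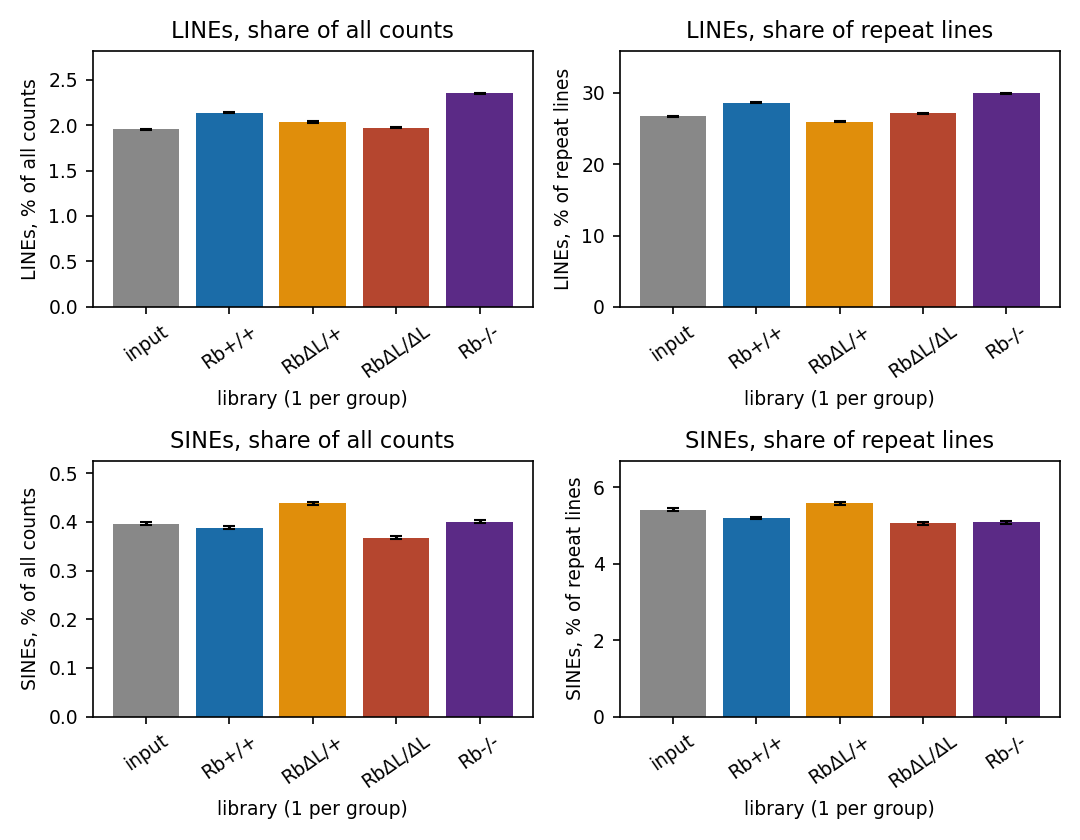
Share of LINEs (top) and SINEs (bottom) in each library, in percent of all counts (left) and of the 10 repeat lines (right). Bars are single libraries and error bars are exact 95% binomial intervals. LINEs were highest in Rb-/- on both scales (2.35% and 29.9%). SINEs were highest in RbΔL/+ on these scales (0.438% and 5.59%), though not after division by the median line, which SINEs partly set.

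Within the 10 repeat lines, which leave out Satellite and Unique genome, LINEs again had their largest share in Rb-/-, but RbΔL/+ moved below the input. LINEs held 29.9% of repeat line counts in Rb-/- (29.8 to 30.0) and 28.6% in Rb+/+ (28.6 to 28.7). RbΔL/ΔL followed at 27.1% (27.0 to 27.2), the input at 26.7% (26.6 to 26.8) and RbΔL/+ at 25.9% (25.8 to 26.0). RbΔL/+ was thus the lowest library on this scale, at 0.971 times the input (0.966 to 0.975), while Rb-/- stood at 1.12 times (1.116 to 1.124). Tandem repeats were larger than LINEs, at 31.6% of repeat line counts in Rb-/- and 34.7% in the input. Endogenous retroviruses were larger in RbΔL/+, at 30.5%, and in the input, at 29.0%. In Rb-/- they held 29.1%, less than LINEs. SINEs held 5.59% of repeat line counts in RbΔL/+ (5.54 to 5.63) and 5.42% in the input (5.38 to 5.46). Rb+/+ followed at 5.20% (5.17 to 5.24), Rb-/- at 5.09% (5.06 to 5.13) and RbΔL/ΔL at 5.07% (5.03 to 5.11). On this scale RbΔL/+ was the only ChIP library above the input for SINEs, and RbΔL/ΔL and Rb-/- could not be told apart by counting error. Rb-/-, whose interval had overlapped that of the input as a share of all counts, lay at 0.940 times the input here (0.931 to 0.950).

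The LINE to SINE count ratio needs no total and is the same on every scale. LINE counts were 5.87 times the SINE counts in Rb-/- (5.82 to 5.92), 5.502 times in Rb+/+ (5.46 to 5.55) and 5.36 times in RbΔL/ΔL (5.31 to 5.402). The input followed at 4.93 (4.89 to 4.97) and RbΔL/+ at 4.64 (4.60 to 4.68). No intervals overlapped, and RbΔL/+ was the only ChIP library below the input. Relative to the input, RbΔL/+ had a ratio of 0.941 (0.930 to 0.953), RbΔL/ΔL of 1.09 (1.07 to 1.099), Rb+/+ of 1.12 (1.103 to 1.13) and Rb-/- of 1.19 (1.18 to 1.21). These 4 values share the input library and its error. The highest ChIP library, Rb-/-, was 1.27 times the lowest, RbΔL/+ (1.25 to 1.28). Without RbΔL/+ the highest was 1.097 times the lowest. The size of a single ratio depends on how many bases of each class the genome holds and on how reads were assigned, so only its change between libraries is read here.

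**Figure D2:**
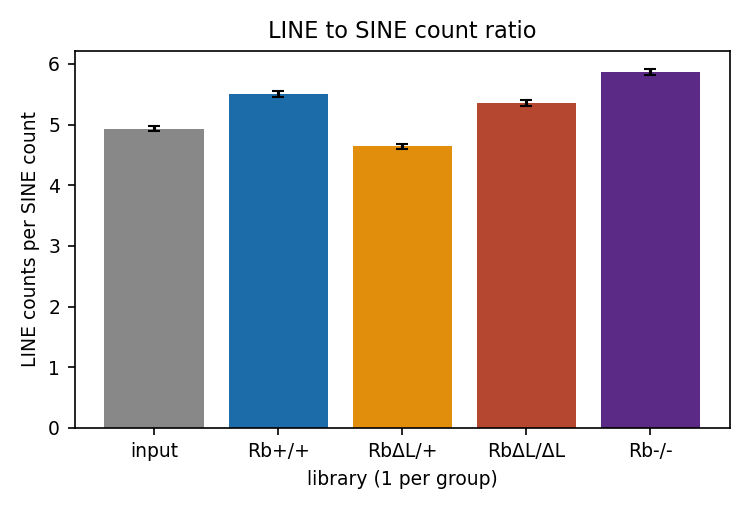
LINE counts per SINE count in each of the 5 libraries, with 95% counting intervals as error bars. Rb-/- was highest at 5.87, and RbΔL/+, at 4.64, was the only ChIP library below the input (4.93).

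The same direction of the LINE to SINE ratio came with different changes of its members. As log2 ratios of shares of all counts to the input, LINEs in Rb-/- were at 0.27 and SINEs at 0.01, so the higher ratio lay almost wholly with LINEs. In RbΔL/ΔL LINEs were at 0.01 and SINEs at -0.11, so there it lay almost wholly with SINEs. Rb+/+ had both, with LINEs at 0.13 and SINEs at -0.03. In RbΔL/+ both were above the input, SINEs at 0.15 and LINEs at 0.06. This split between the members depends on the total used, whereas the ratio does not. As a share of the 10 repeat lines, the log2 values were 0.16 for LINEs and -0.09 for SINEs in Rb-/-, and -0.04 and 0.04 in RbΔL/+.

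**Figure D3:**
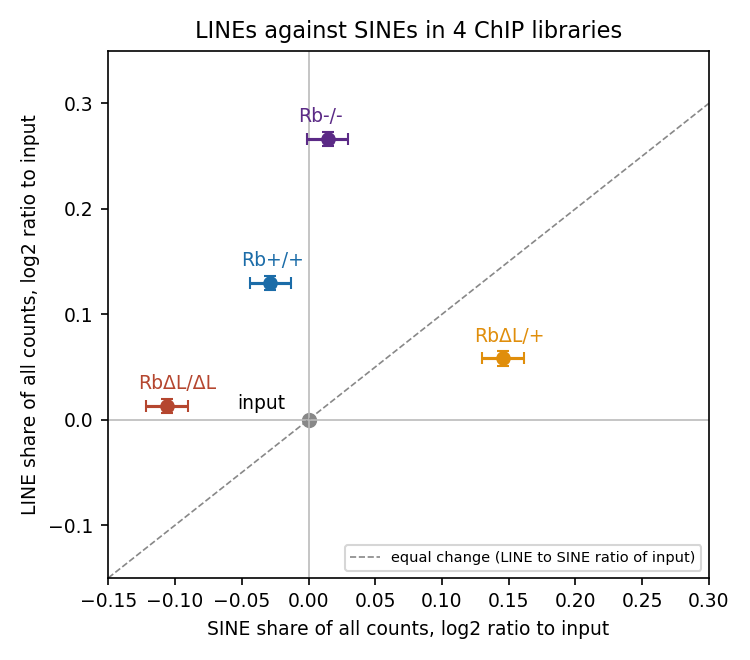
Log2 ratio to input of the LINE share (vertical axis) against that of the SINE share (horizontal axis), both as shares of all counts, for the 4 ChIP libraries, with the input at 0. Error bars are 95% counting intervals, and the dashed line marks equal change of both classes. RbΔL/+ alone lies below the dashed line, and Rb-/- lies farthest above it.

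Set against the Rb+/+ library, the ΔL libraries had smaller LINE shares and Rb-/- a larger one. By share of all counts, Rb-/- had 1.0996 times the LINEs of Rb+/+ (1.095 to 1.104), RbΔL/+ had 0.952 times (0.947 to 0.956) and RbΔL/ΔL had 0.922 times (0.918 to 0.927). Within the repeat lines the values were 1.04, 0.905 and 0.948 in the same order. For SINEs, RbΔL/+ had 1.13 times the share of Rb+/+ (1.12 to 1.14), Rb-/- had 1.03 times (1.02 to 1.04) and RbΔL/ΔL had 0.948 times (0.937 to 0.958). Within the repeat lines the SINE values were 1.07, 0.979 and 0.974 in that order, so the Rb-/- value turned below 1. After division by the median line SINEs were below Rb+/+ in all 3 mutants, at 0.980 in RbΔL/+, 0.995 in Rb-/- and 0.934 in RbΔL/ΔL. SINEs are among the middle lines of that median in Rb+/+, RbΔL/+ and Rb-/-. The values of 0.980 and 0.995 therefore lie near 1 by construction. For the LINE to SINE ratio, Rb-/- was at 1.07 times Rb+/+ (1.06 to 1.08), RbΔL/ΔL at 0.973 (0.962 to 0.985) and RbΔL/+ at 0.843 (0.833 to 0.854). The RbΔL/+ ratio was therefore farther from Rb+/+ than that of RbΔL/ΔL, which carries the allele on both copies. All these values rest on the single Rb+/+ library.

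Among the mutants, Rb-/- had 1.19 times the LINE share of RbΔL/ΔL (1.19 to 1.198) and 1.16 times that of RbΔL/+ (1.15 to 1.16). For SINEs Rb-/- was at 1.09 times RbΔL/ΔL (1.08 to 1.099) and 0.913 times RbΔL/+ (0.903 to 0.923). The latter turned to 1.01 after division by the median line, a value near 1 by construction. SINEs are among the middle lines of that median in both Rb-/- and RbΔL/+. RbΔL/ΔL was at 0.969 times RbΔL/+ for LINEs (0.964 to 0.974), but at 1.046 within the repeat lines, and 0.840 times for SINEs (0.830 to 0.849). The LINE to SINE ratio of RbΔL/ΔL was 1.15 times that of RbΔL/+ (1.14 to 1.17), and that of Rb-/- was 1.097 times that of RbΔL/ΔL (1.08 to 1.11).

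By rank among all 12 lines of the table, small ones included, the changes of LINEs and SINEs were of middling size. The highest ChIP library was 1.19 times the lowest for LINEs and 1.19 times for SINEs, which ranked 6 and 7 of 12 by this spread. Pseudogene led at 4.11 times, and Unique genome had the smallest spread at 1.01 times. Of the lines that spread more than LINEs, only Simple repeats, at 1.39 times, had at least 10000 counts in every library. A line is counted as past the fold where its share of all counts is more than 1.1 times that of the reference or less than the inverse of this. Against the input, 0 of the 2 classes were past it in Rb+/+, where 33.3% of the 12 lines were, and 0 of 2 in RbΔL/ΔL, where 25.0% were. In RbΔL/+ 1 of the 2, SINEs, was past it on the higher side, where 58.3% of lines were (66.7% on either side). In Rb-/- 1 of the 2, LINEs, was past it on the higher side, where 33.3% of lines were (50.0% on either side). Against Rb+/+, SINEs in RbΔL/+ were past it on the higher side with 58.3% of lines (66.7% on either side). Neither class was past it in RbΔL/ΔL or in Rb-/-, where 41.7% of lines were in each, and LINEs in Rb-/-, at 1.0996, were just short of it. By rank among the 12 ratios to input, LINEs ranked 2 from the top in Rb+/+, 3 in both Rb-/- and RbΔL/ΔL and 8 in RbΔL/+. SINEs ranked 6 in both Rb+/+ and Rb-/-, 7 in RbΔL/+ and 10 in RbΔL/ΔL.

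**Figure D4:**
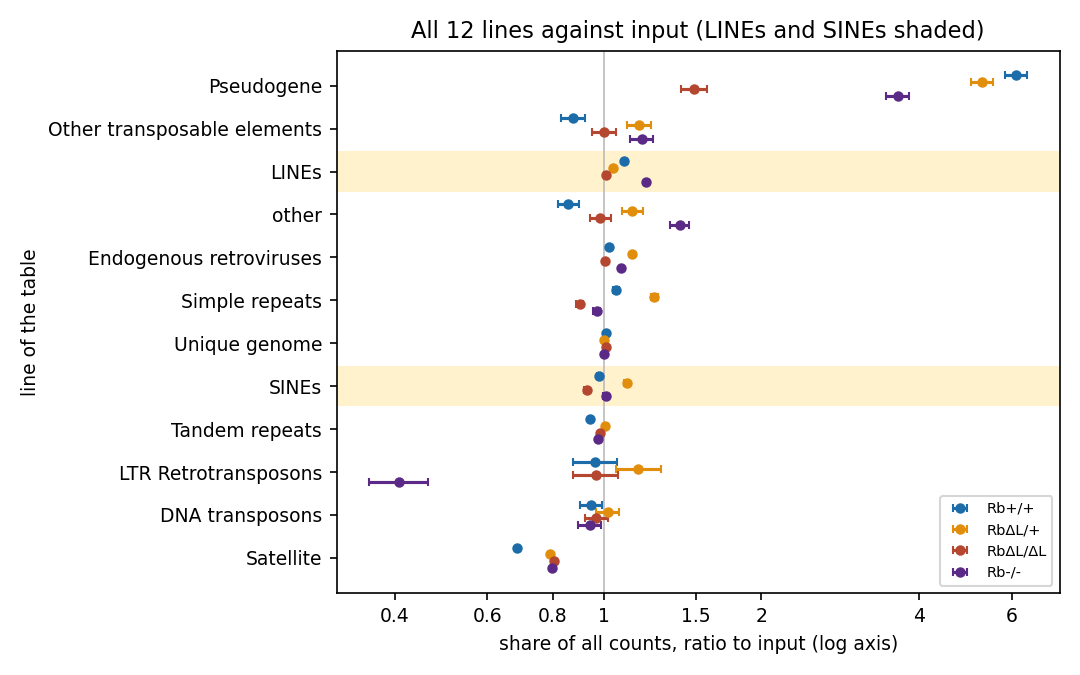
Ratio to input of the share of all counts for the 12 lines of the table (log axis), with LINEs and SINEs shaded. Points are single ChIP libraries and error bars are 95% counting intervals. LINEs lie between 1.01 and 1.203 and SINEs between 0.929 and 1.11. Pseudogene and LTR Retrotransposons, with only 1961 and 821 counts in the input, have wider ranges.

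RbΔL/+ stood apart in that its median line was 1.12 times the input, a shift of 0.16 on the log2 scale, against shifts of 0.01 in Rb-/-, -0.02 in RbΔL/ΔL and -0.04 in Rb+/+. After division by the median line of each library, both classes in RbΔL/+ were below the input, at 0.931 for LINEs and 0.989 for SINEs. SINEs in Rb+/+ came to 1.01. Both SINE values lie near 1 by construction, since SINEs are among the middle lines of the median in these libraries. LINEs in Rb-/- were above the input on 5 of 5 scales, at 1.12 to 1.203, as were LINEs in Rb+/+, at 1.07 to 1.13. The 5 scales divided by all lines, by the 10 repeat lines, by Unique genome, by the median line, or by the median of the lines with at least 10000 counts in every library. They are not independent. In Rb+/+ and Rb-/- the last equals division by Unique genome, with LINEs at 1.08 and 1.199 on both. Unique genome also holds most counts, so division by all lines lies close to it. Rb-/- was also above each of the other ChIP libraries for LINEs on 5 of 5 scales, and both ΔL libraries were below Rb+/+ (0.827 to 0.960 in RbΔL/+ and 0.909 to 0.948 in RbΔL/ΔL). For SINEs, RbΔL/ΔL was below the input on 5 of 5 scales (0.921 to 0.942) and below the other 3 ChIP libraries, narrowly so against Rb-/- within the repeat lines. Other directions were mixed, among them LINEs in RbΔL/ΔL against RbΔL/+, below 1 on 2 scales and above it on 3.

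**Figure D5:**
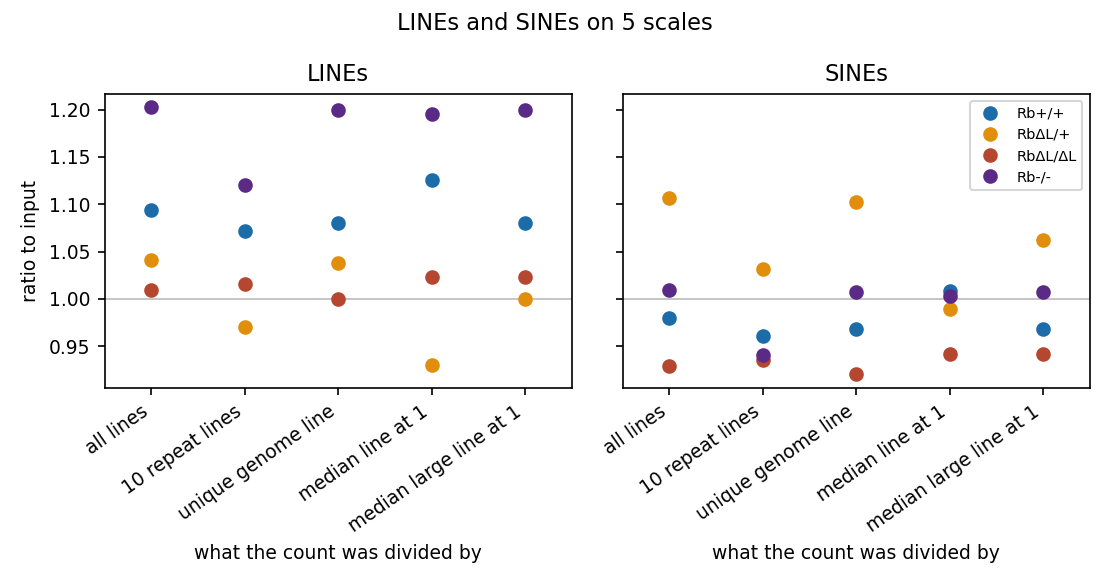
Ratio to input of LINEs (left) and SINEs (right) in the 4 ChIP libraries (points) on 5 scales, named on the horizontal axis by what the count was divided by. Rb-/- is the highest point for LINEs on 5 of 5 scales (1.12 to 1.203) and RbΔL/ΔL the lowest for SINEs (0.921 to 0.942). The scales are not independent of one another. RbΔL/+ moves across 1 in both panels, for SINEs only at the median line, which SINEs partly set.

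The line whose ratios to input were most like those of LINEs over the 4 ChIP libraries was endogenous retroviruses, with a mean absolute difference of 0.09 on the log2 scale, followed by Unique genome at 0.11. For SINEs 4 lines were about equally near, with endogenous retroviruses at 0.078, Unique genome at 0.079, tandem repeats at 0.082 and DNA transposons at 0.083. Unique genome holds most counts, and its own log2 ratios were only 0.004 to 0.018. Nearness to it therefore describes small changes and not a shared pattern. LINEs and SINEs were less like each other, at 0.15, and SINEs ranked 5 of 11 in likeness to LINEs. Endogenous retroviruses move by copying RNA into DNA as LINEs do but carry long terminal repeats. Their log2 ratios to input, as shares of all counts, were 0.01 for RbΔL/ΔL, 0.04 for Rb+/+, 0.11 for Rb-/- and 0.18 for RbΔL/+. LINEs were at 0.01, 0.13, 0.27 and 0.06 in these libraries, so they were highest in Rb-/- and not in RbΔL/+. Nearness by this measure thus does not mean a shared order of libraries. With LINEs set against SINEs, DNA transposons, endogenous retroviruses and LTR retrotransposons together, the ratio relative to the input was 1.13 in Rb-/-, 1.07 in Rb+/+, 1.01 in RbΔL/ΔL and 0.924 in RbΔL/+. RbΔL/+ was again the only ChIP library below the input, and RbΔL/ΔL came close to it.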

How the data were processed

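The files used were the read count tables of the 5 libraries, 12 lines each. The authors deposited whole-number counts per line, without normalization. The submitters' processing notes name Bowtie 1.0, MACS 1.4.2 and the build mm9, with no role. The sources used here give neither the repeat library nor the handling of reads that fit several copies nor any removal of duplicates, and each could change the level of both classes. Peak lists and satellite family tables were not used.

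Genotypes came from the labels. Counts were divided by the sum of the 12 lines or of the 10 repeat lines. Shares have exact (Clopper-Pearson) 95% binomial intervals, and ratios have 95% counting intervals on the log ratio, tested on simulated data. The intervals cover counting error only, since each genotype has 1 library. The labels mention no molecular identifiers, so reads may not be independent molecules and the intervals may be too narrow even for that error. With 1 library per genotype no test was run. Members, the fold of 1.1, likeness (mean absolute difference of log2 ratio to input, 2 nearest lines named) and alternatives were chosen with earlier results of these data known. Alternatives were other denominators, median scaling with and without a minimum of 10000 counts, a wider partner for LINEs, other folds and leaving out each ChIP library. Median scaling against Rb+/+ was added after the data were seen. Software was scipy 1.17.1, numpy 2.4.6, matplotlib 3.10.9 and pandas 2.3.3 under Python 3.11.15.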

Additional observations from a re-analysis of the deposited data

Results flagged for a closer look

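In 5 comparisons a class or the LINE to SINE ratio lay above the reference in at least 1 library and below it in another, each by more than counting error. Every such difference between genotypes rests on 1 library per genotype and was not tested. Against the input, SINEs were at 0.980 in Rb+/+ and 0.929 in RbΔL/ΔL but at 1.11 in RbΔL/+. After division by the median line the values for Rb+/+ and RbΔL/+ turned, to 1.01 and 0.989. Both lie near 1 by construction, since SINEs are among the middle lines of that median in these libraries. The LINE to SINE ratio was at 1.12 in Rb+/+, 1.09 in RbΔL/ΔL and 1.19 in Rb-/- but at 0.941 in RbΔL/+. Against Rb+/+, LINEs were at 0.952 in RbΔL/+ and 0.922 in RbΔL/ΔL but at 1.0996 in Rb-/-. SINEs were at 0.948 in RbΔL/ΔL but at 1.13 in RbΔL/+ and 1.03 in Rb-/-. Within the repeat lines the Rb-/- value was 0.979. After division by the median line RbΔL/+ was at 0.980 and Rb-/- at 0.995. These again lie near 1 by construction, as SINEs are among the middle lines in Rb+/+, RbΔL/+ and Rb-/-. The LINE to SINE ratio was at 0.843 in RbΔL/+ and 0.973 in RbΔL/ΔL but at 1.07 in Rb-/-. RbΔL/+ was the library with the fewest counts, and the part of depth was not tested.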

How the results depend on the processing

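The ratios below are those that left the counting interval of the value in the report, and the cause was not tested except where stated. Libraries are in the order Rb+/+, RbΔL/+, RbΔL/ΔL and Rb-/- unless named. Within the 10 repeat lines, LINEs against the input came to 1.07, 0.971, 1.02 and 1.12, and SINEs to 0.961, 1.03 and, in Rb-/-, 0.940. Against Rb+/+ the 3 mutants came to 0.905, 0.948 and 1.04 for LINEs and 1.07, 0.974 and 0.979 for SINEs. LINEs in RbΔL/+ against the input and SINEs in Rb-/- against Rb+/+ thereby changed direction. Divided by Unique genome, LINEs were at 1.08 in Rb+/+ and, just below the input, 0.9998 in RbΔL/ΔL, and SINEs at 0.968 in Rb+/+. On that scale LINEs against Rb+/+ were at 0.960 in RbΔL/+ and 1.11 in Rb-/-. With the median line at 1, LINEs were at 1.13, 0.931, 1.02 and 1.195 and SINEs at 1.01, 0.989 and 0.942 in the first 3 libraries. LINEs in RbΔL/+ and SINEs in Rb+/+ and RbΔL/+ changed direction there. Against Rb+/+ this scaling, added after the data were seen, gave 0.827, 0.909 and 1.06 for LINEs and 0.980, 0.934 and 0.995 for SINEs, with a change of direction for SINEs in RbΔL/+ and Rb-/-. With the median over lines of at least 10000 counts at 1, LINEs were at 1.08, 1 and 1.02 and SINEs at 0.968, 1.06 and 0.942 in the first 3 libraries. The value of 1 follows from the construction, since LINEs are the median line there. Likewise, SINEs are among the middle lines of the median over all 12 lines in Rb+/+, RbΔL/+ and Rb-/-. Their values in these libraries with the median line at 1, and the changes of direction, therefore lie near 1 by construction.

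LINEs against SINEs, DNA transposons, endogenous retroviruses and LTR retrotransposons together, in place of SINEs alone, came to 1.07, 0.924, 1.01 and 1.13 relative to the input, and to 0.860, 0.944 and 1.049 relative to Rb+/+, with the direction of the LINE to SINE ratio in all 7 comparisons. Leaving out each ChIP library in turn, the highest over the lowest library ranged from 1.08 to 1.19 for LINEs, 1.09 to 1.19 for SINEs and 1.097 to 1.27 for the LINE to SINE ratio. Counts of lines past the fold are given where they moved by more than 1.5 times. With a fold 5% above 1 in place of 10%, 8 lines in place of 4 were past it in Rb+/+ against the input and 8 in place of 5 in Rb-/- against Rb+/+. At a fold of 1.2 the count was 2 in place of 4 in Rb+/+ and 3 in place of 8 in RbΔL/+ against the input, and 3 in place of 8 in RbΔL/+ and 1 in place of 5 in RbΔL/ΔL against Rb+/+. Of the 14 values of LINEs and SINEs in these 7 comparisons, 3 were past a fold 10% above 1. Of all 12 lines, 4, 8, 3 and 6 were past it against the input, and 8, 5 and 5 against Rb+/+. Past a fold 5% above 1 were 9 of the 14, among them both classes in RbΔL/ΔL and in RbΔL/+ against Rb+/+. Of all 12 lines, 8, 8, 4 and 8 were past that fold against the input, and 11, 7 and 8 against Rb+/+. Past a fold of 1.2 there was 1, LINEs in Rb-/- against the input. Of all 12 lines, 2, 3, 2 and 5 were past 1.2 against the input, and 3, 1 and 4 against Rb+/+. No paired analysis was possible because each group has 1 library.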
